A study of Mus musculus with 4 samples.

Results

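The set described here holds 9449 regions of open chromatin that were found in every library of the series and ranked higher in motor neurons without Hoxa5 than in controls. They are 14.4% of the 65789 regions shared by all 4 libraries, out of 199576 regions in all. The assay was ATAC-seq: Tn5, a transposase, inserts sequencing adapters wherever DNA is accessible. The cells were motor neurons of the cervical spinal cord, taken from mice at embryonic day 12.5 and sorted for the fluorescence of a ChAT::GFP transgene, a reporter of the enzyme that makes acetylcholine. There were 2 control and 2 Hoxa5-deficient libraries from littermates, and cells of both genotypes carried the reporter. The sources used here do not say which part of Hoxa5 is lost, in which cells, or how many embryos and of which sex each library holds. A sort on a cholinergic reporter can also take other cholinergic cells, and where a region is open in some cells only, fewer such cells and less opening per cell cannot be told apart.

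The authors called peaks in each library separately, and each peak carries the −log10 of a p-value from their peak caller, written by the authors and used here only for ranking. Within each library every interval received a percentile from 0, the weakest, to 100. Intervals of the 4 lists were merged where they overlapped by at least 1 bp, and a merged region took the best percentile of each library. A region was selected when its lower Hoxa5-deficient percentile exceeded its higher control percentile by at least 10 points, a distance called the gap below. The members were therefore chosen on the genotype difference itself, so every strength difference between genotypes that follows is a description with no test. With 2 libraries against 2, an exact permutation test could not reach 0.05 in any case.

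Hoxa5 belongs to the Hox family of homeodomain transcription factors, which give neurons of the spinal cord their identity along the body axis. The Hox5 proteins act in cervical motor neurons, which include the phrenic motor column that drives the diaphragm. Hox proteins bind short AT-rich sites, often together with the cofactors Pbx and Meis, and can both activate and repress genes. Most open regions outside promoters are candidate enhancers, whose accessibility differs between cell types more than that of promoters does.

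Most members lay away from annotated promoters, inside gene bodies or between genes, where only coordinates were at hand. Sequence is therefore shown for the few at annotated promoters. In 37 promoter windows of protein-coding genes, each covering the 250 bases before a RefSeq transcription start on assembly GRCm38.p6, the summits of both Hoxa5-deficient libraries lay inside the window. Of these, 7 held a homeodomain core (TAATTA) or a Hox-Pbx composite (TGATTNAT) on either strand. Windows with either motif were not counted in other sets. Taken singly, the 2 motifs were in 7.42% and 5.08% of the 256 windows touched by members. They were in 4.84% and 2.82% of all promoter windows, and in 2.37% and 1.14% of those touched by any shared region. The 4 of the 7 printed here belong to genes with a role in neurons and were picked after their values were seen. Only 2.56% of members lay within 1 kb of a gene end. The printed windows were also chosen for a match, so they are examples and not typical members. They read 5′ to 3′ on the gene's strand, with capitals marking TAATTA, TGATTNAT and the Meis or Pknox core TGACAG on either strand.
Dcx, chrX:143933125-143933374, minus strand: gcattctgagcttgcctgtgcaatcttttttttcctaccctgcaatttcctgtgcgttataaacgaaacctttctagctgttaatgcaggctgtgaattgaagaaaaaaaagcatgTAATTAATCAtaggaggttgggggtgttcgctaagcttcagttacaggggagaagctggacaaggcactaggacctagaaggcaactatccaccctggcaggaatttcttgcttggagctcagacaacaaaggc
Evl, chr12:108605516-108605765, plus strand: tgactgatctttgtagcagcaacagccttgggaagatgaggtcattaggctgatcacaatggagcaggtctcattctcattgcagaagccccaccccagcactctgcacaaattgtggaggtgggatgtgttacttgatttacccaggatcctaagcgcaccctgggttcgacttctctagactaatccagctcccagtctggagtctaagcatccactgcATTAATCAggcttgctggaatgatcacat
Insc, chr7:114745516-114745765, plus strand: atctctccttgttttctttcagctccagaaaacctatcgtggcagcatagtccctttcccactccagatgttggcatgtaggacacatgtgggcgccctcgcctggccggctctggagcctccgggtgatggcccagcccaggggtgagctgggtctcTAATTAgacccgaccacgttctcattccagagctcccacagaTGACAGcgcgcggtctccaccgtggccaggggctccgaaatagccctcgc
Uncx, chr5:139543648-139543897, plus strand: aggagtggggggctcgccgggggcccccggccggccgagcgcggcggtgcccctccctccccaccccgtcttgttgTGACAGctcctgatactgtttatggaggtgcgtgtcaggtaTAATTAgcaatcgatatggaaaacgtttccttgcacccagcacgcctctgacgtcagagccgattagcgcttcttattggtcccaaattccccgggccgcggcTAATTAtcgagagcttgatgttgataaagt

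Dcx encodes doublecortin, a microtubule protein of young migrating neurons. Its promoter member had 40 tags at the summit in each control library, against 78 and 105 tags in Hoxa5-deficient libraries 1 and 2. The homeodomain core and the composite overlap there, in a single run of 10 capitals. Evl encodes an Ena/VASP protein that promotes actin filament growth in growth cones. Its member held 25 and 26 tags in controls and 60 and 77 tags without Hoxa5. Insc, which encodes the spindle-orientation protein Inscuteable, had 44 and 39 tags in controls against 103 and 145. Uncx encodes a homeobox factor of interneurons and somites, and its window holds 2 homeodomain cores and a Meis core. Its member was the strongest of these 4, with 131 and 102 tags in controls and 262 and 373 tags without Hoxa5, and its gap of 10.1 points was close to the lowest that the rule allows. At each of these 4 promoters the tag counts of the genotypes did not overlap, which the selection of members largely sets. In tags relative to background, the genotypes were separated in this direction at 99.7% of members and 42.3% of all shared regions. The other 3 windows with such a match belong to Pgr15l, Tph1 and Krt73. A match is a description of letters and does not show that a protein binds there.

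Peak summits numbered 165866 and 163016 in controls and 192771 and 206114 without Hoxa5, in 115089, 113505, 127458 and 138248 distinct intervals. Tag counts at summits, which the files do not list, were recovered from the authors' fold enrichment and −log10 p for at least 99.999% of summits. The lowest local background, which follows depth, was 5.43 and 4.39 tags in controls and 5.14 and 6.06 tags in Hoxa5-deficient libraries. Tags are therefore also given as multiples of that background, called background multiples. Across all shared regions the log2 ratio of Hoxa5-deficient to control background multiples had a median of 0.18, and values called centred have this shift subtracted. Percentiles of shared regions correlated more within a genotype (Pearson's r 0.857 between controls and 0.881 between mutants) than across genotypes (0.629 to 0.698). These are descriptions over 65789 regions of the same libraries, which share the region set.

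The same gap was counted for every other way of splitting the libraries in pairs. The mirror set, in which both control percentiles exceeded both Hoxa5-deficient ones, held 4786 regions, or 7.27% of shared regions. Splits that crossed the genotypes gave far fewer. Control 1 with Hoxa5-deficient 1 stood above the other libraries in 562 regions (0.854%), and control 1 with Hoxa5-deficient 2 in 1026 regions (1.56%). Control 2 with Hoxa5-deficient 1 stood above in 461 regions (0.701%), and control 2 with Hoxa5-deficient 2 in 780 regions (1.19%). The members were 13.4 times the mean of these crossed counts, and the mirror set was 6.77 times that mean. Leaving out a library gave 17129 members without control 1, 16483 without control 2, and 13710 and 11221 without Hoxa5-deficient 1 and 2, and 7300 to 9949 regions in the mirror set, because fewer percentiles then have to separate.

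The excess of members over the mirror set, 1.97 times, depended on the list in which percentiles were taken. The Hoxa5-deficient lists were longer and held more weak intervals, so a shared region sat higher in them, with median percentiles of 72.8 and 74.5 against 70.7 and 70.2 in controls. When percentiles were taken among the shared regions alone, so that each library ranked the same items, 8735 regions (13.3%) were higher without Hoxa5 and 8239 (12.5%) were lower, a ratio of 1.06. The crossed counts were then 559 to 696. The split by genotype thus kept a count 14.4 times the crossed mean, while higher and lower regions were nearly equal in number. Of the 9449 members, 8027 (85.0%) were also selected by that ranking.

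**Figure D1:**
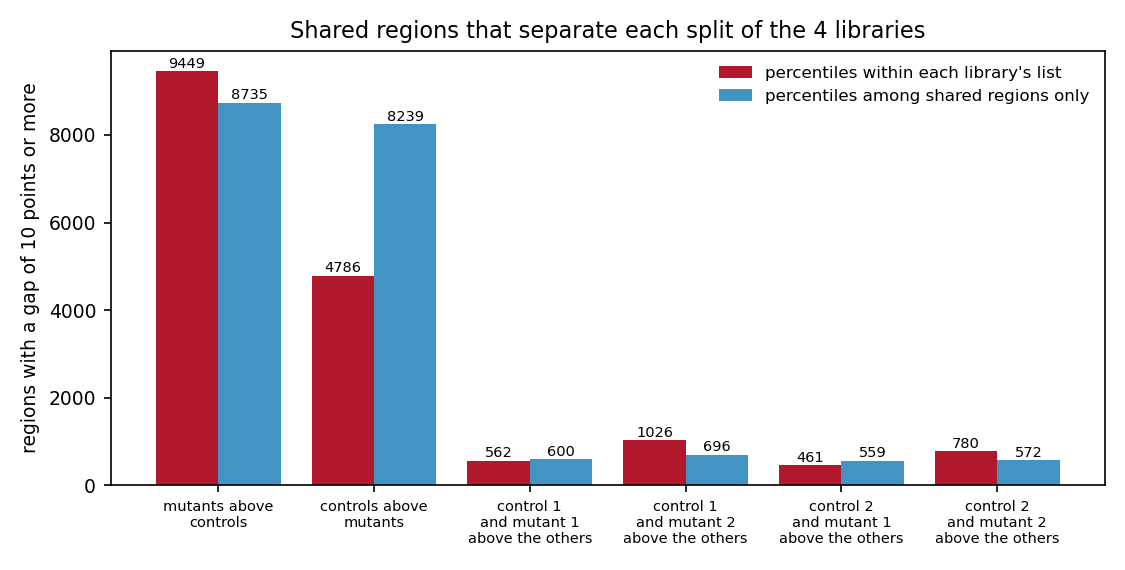
Number of shared regions (vertical axis) in which 1 pair of libraries stood at least 10 percentile points above the other pair, for the 6 possible pairs, with percentiles taken within each library's list (red) or among shared regions only (blue). Both genotype splits stand far above the crossed splits, and the difference between the red bars of the genotype splits, 9449 and 4786, is nearly absent in blue, 8735 and 8239.

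Members were weak for shared regions in controls and close to the typical shared region without Hoxa5. Their median percentiles were 43.1 and 44.1 in controls 1 and 2 and 73.8 and 76.3 in Hoxa5-deficient 1 and 2, against 70.7, 70.2, 72.8 and 74.5 for all shared regions. Median tags at the summit were 22 and 19 in controls and 48 and 68 without Hoxa5, or 4.05 and 4.33 against 9.34 and 11.2 background multiples, and all shared regions had medians of 47, 39, 48 and 66 tags. In tags relative to background, both Hoxa5-deficient libraries were above both controls at 9419 members (99.7%). The same held at 27805 of all shared regions (42.3%), and the selection on percentiles largely sets the members' share. Their median log2 ratio was 1.19, or 1.01 after centring. The ratio ran from 0.522 to 2.23 between the 5th and 95th percentiles of members. At least a doubling was found at 6211 members (65.7%) and at 11.3% of all shared regions. At 9 members the log2 ratio was below 0, down to −0.21, since the peak caller's p-value also weighs the local background. The median region of the set was 785 bp wide, against 765 bp for all shared regions and 621 bp for the mirror set. Summits of the 4 libraries spread over a median of 90 bp within a member, 72 bp within the mirror set and 42 bp within any shared region.

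The gap ran from 10 to 83.6 points, with a median of 19.5. It reached 20 points at 4545 members (48.1%), 40 points at 763, 60 points at 68 and 70 points at 12. Percentiles are coarse at the weak end of a list, where many intervals share a tag count. In control 2, intervals with 11, 12 and 13 tags had median percentiles of 5.54, 10.9 and 17.6. At 50 tags the median percentile was 79.6 in that library, so 1 tag more or less moved a strong region little and a weak one by several points.

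**Figure D2:**
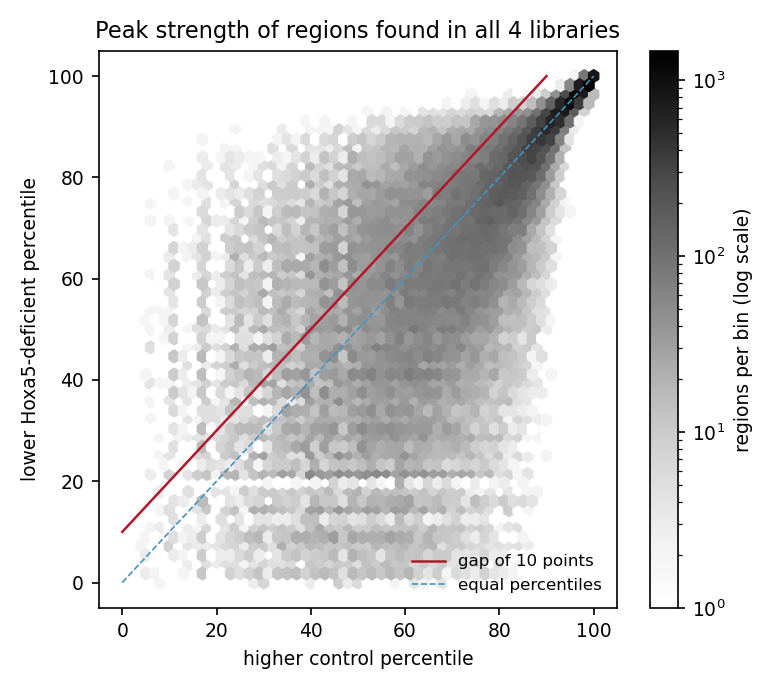
Density of the 65789 shared regions by their higher control percentile (horizontal axis) and lower Hoxa5-deficient percentile (vertical axis), with darker cells holding more regions on a log scale. Members lie on or above the red line, which marks the gap of 10 points, and thin out towards the strong end of the control axis, where no region above a control percentile of 90 can reach that gap.

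Values at the edge of the rule show what a small gap amounts to. Just inside it was chr11:88694128-88695137 in Msi2, an RNA-binding protein gene of neural progenitors, with 44 and 47 tags in controls and 72 and 120 tags without Hoxa5. The 95% Poisson intervals for counting error, 31.97 to 59.07 tags in control 1 and 56.34 to 90.67 tags in Hoxa5-deficient 1, overlapped there. Members near Olfm4 (27, 19, 34 and 48 tags, controls first) and in Abca1 (39, 38, 66 and 89 tags) had a gap that also rounded to 10 points. Just outside were regions in Crim1 (38, 23, 51 and 70 tags), Grrp1 (84, 76, 153 and 300 tags) and Lingo1 (46, 38, 83 and 179 tags). The last 2 of these had larger log2 ratios, 1.23 and 1.35, than the 3 just inside, 0.64 to 0.84. Membership near the threshold therefore did not follow the size of the tag ratio.

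The 12 members with the largest gaps had between 10 and 15 tags in each control library, close to the weakest peaks called, and from 50 to 244 tags in each Hoxa5-deficient library. The largest gap, 83.6 points, was at chr7:49373558-49374310, inside Nav2, a gene for a cytoskeletal protein of neurite outgrowth. This region had 13 and 10 tags in controls and 75 and 118 tags without Hoxa5, at percentiles of 0.15, 0.11, 83.71 and 86.45. It was among the weakest peaks of both control lists, and its log2 ratio was 2.85. The highest log2 ratio of any member, 3.89, was at chr3:157210001-157211175 inside Negr1, which encodes an IgLON cell adhesion protein. It had 15 and 10 tags in controls and 176 and 244 tags without Hoxa5. Its 95% Poisson intervals were 8.40 to 24.74 and 4.80 to 18.39 tags in controls and 150.96 to 204.01 and 214.34 to 276.61 tags without Hoxa5, far apart. These intervals cover counting error only and leave out differences between libraries of the same genotype.

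Several of the 12 lay far from any gene body, so the assigned gene is only the nearest one. The member chr4:142597287-142598338, 358 kb from Kazn, had 14 and 11 tags in controls and 83 and 153 without Hoxa5. A member 382 kb from Ebf1, a transcription factor gene of differentiating motor neurons, had 14, 11, 65 and 125 tags. A member 109 kb from Sst, the somatostatin gene, had 15, 10, 100 and 144 tags. In each of them the lower Hoxa5-deficient count was over 4 times the higher control count. A member 817 kb from Tenm3, which encodes a teneurin that matches synaptic partners, had 15 and 11 tags in controls and 93 and 111 tags without Hoxa5. The others were inside Prep and Cacng1 and nearest to Iqub, Cd180, Tsen15 and Spertl. The Spertl region was the weakest of the 12 in Hoxa5-deficient library 2, with 53 tags.

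**Figure D3:**
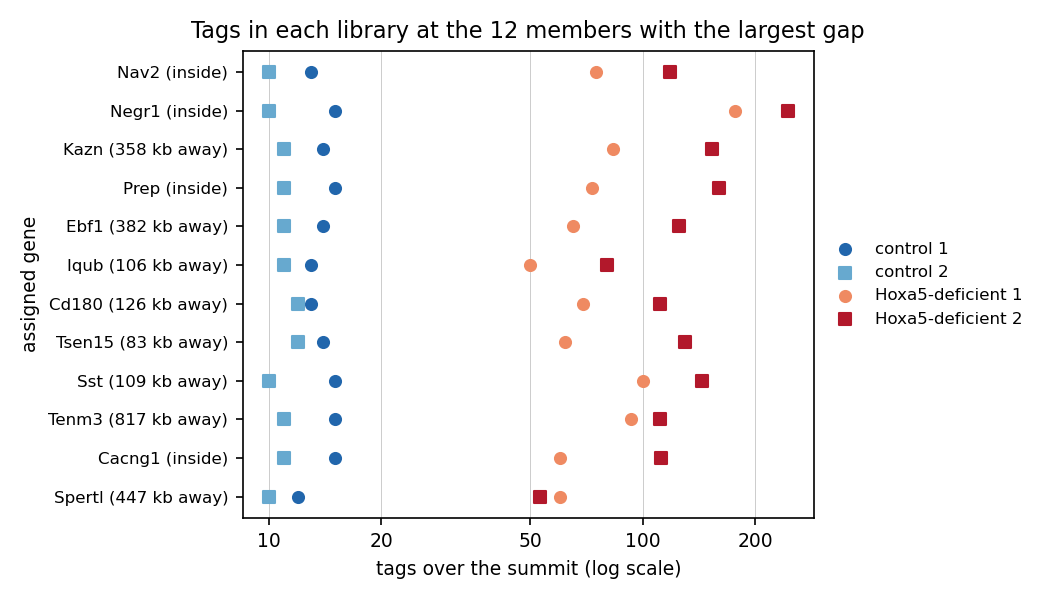
Tags at the summit (horizontal log axis) in each of the 4 libraries for the 12 members with the largest gap, named by the gene that holds or lies nearest to them. The control points (blue) sit between 10 and 15 tags and the Hoxa5-deficient points (orange and red) between 50 and 244.

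Members were scarce at the ends of genes and common in the spaces between them. Only 242 members (2.56%) lay within 1 kb of an end of a protein-coding gene, against 13036 (19.8%) of shared regions and 5.08% of the mirror set. A further 4703 (49.8%) lay inside gene bodies, against 52.9% of shared regions. Over 100 kb from any protein-coding gene lay 2171 members (23.0%), against 12.5% of shared regions and 14.4% of the mirror set. The share at gene ends was 9.84% when windows of 100 bp on each side of summits replaced intervals and 6.29% when only peaks with −log10 q of at least 5 were used, against 28.4% and 26.9% of the shared regions of those settings. The annotation table gives no exons, so bodies were not split into exons and introns.

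Read the other way, the share of shared regions that were members climbed with distance from a gene end. It was 1.86% within 1 kb, 8.35% from 1 to 10 kb, 17.4% from 10 to 100 kb and 26.2% beyond 100 kb. The mirror set took 1.86%, 8.08%, 9.05% and 8.24% of the same classes, so it had no such climb past 10 kb. With percentiles taken among shared regions only, members made up 1.94%, 7.49%, 16% and 24.2% of these classes and the mirror set 4.07%, 15.5%, 15.3% and 12.5%. Under that ranking regions lower without Hoxa5 were more frequent than members within 10 kb of a gene end, and members were more frequent beyond 100 kb. The median centred log2 ratio over every shared region, members or not, was 0.073 within 1 kb of a gene end, −0.13 from 1 to 10 kb, −0.06 from 10 to 100 kb and 0.13 beyond 100 kb.

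Regions at gene ends are strong in every library, and a region ranked above 90 in a control cannot gain 10 points. Among shared regions, 8119 of the 13036 at gene ends had a higher control percentile of at least 90. The shares were therefore also taken within bins of the higher control percentile. From 40 to 50 points, 21.1% of gene-end regions, 36.4% of the rest and 41.8% of those over 100 kb from a gene were members. From 60 to 70 points the shares were 7.04%, 16.7% and 22.0%. In these bins of like control strength, gene-end regions were members less frequently and regions far from genes more frequently. The bins below 10 and from 10 to 20 points held 1 and 13 gene-end regions and are not compared.

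**Figure D4:**
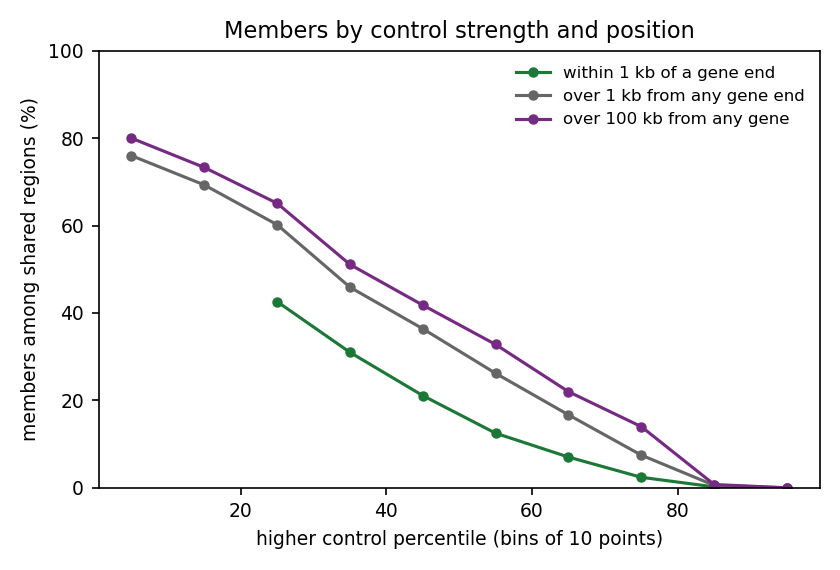
Percentage of shared regions that are members (vertical axis) by bins of 10 points of the higher control percentile (horizontal axis), for regions within 1 kb of a gene end (green), over 1 kb from any gene end (grey) and over 100 kb from any gene (purple). Bins with fewer than 20 regions are left out. The green line stays below the others up to 80 points, and all lines reach 0 above 90.

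By chromosome, members ranged from 11.4% of shared regions on chromosome 7 to 17.3% on chromosome 3 among the autosomes. On the X chromosome 82 of 1178 shared regions (6.96%) were members, where 35.8% of shared regions lay at gene ends against 19.5% on autosomes. On the Y chromosome 1 of 9 shared regions was a member, and the median log2 ratio was −0.61, so these few regions were weaker without Hoxa5. The part of embryo sex in the X and Y values was not tested.

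Members lay near other members somewhat more frequently than near shared regions in general. Where the next shared region along the chromosome was within 10 kb, it was a member for 18.5% of members and for 12.6% of all shared regions. At 10 to 100 kb these shares were 21.1% and 14.7%. For regions of the mirror set, the next region was a member in 14.8% and 15.3% at these distances. It was another mirror region in 11.8% and 8.88%, against 8.23% and 6.95% for all shared regions. Lying near regions of the same set was thus not particular to members. The longest uninterrupted runs had 7 members. One covered 204.7 kb at Acoxl on chromosome 2, another 381.5 kb at Nbas and Lratd1 on chromosome 12, and the widest 1778.9 kb between Tenm3 and Aga on chromosome 8. The 4 runs of 6 lay at Dscam, a homophilic adhesion gene of neurons, at Rab3c, which encodes a synaptic vesicle GTPase, at Gpam, a gene of glycerolipid synthesis, and at 4930583I09Rik and Tmem232.

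Members were assigned to 4092 of the 15899 genes that had any shared region. Of these, 2176 genes had 1 member, 474 had at least 5 and 85 had at least 10. The 6 genes with most members are taken in turn, the last of them tied with Wwox, which had 16 of 60. Tenm3 had 23 members among 77 shared regions, with 6 in the mirror set. Robo1, which encodes a receptor for the repellent Slit proteins, had 22 of 66, with 6 in the mirror set. Ptprd, a receptor phosphatase gene of synapse formation, had 18 of 55 with 3, and Rbfox1, a splicing factor gene of neurons, had 17 of 68 with 8. Ajap1, which encodes a membrane protein of adherens junctions, had 17 of 55 with 2, and only 2 of its members lay in the gene body. Ntm, which encodes the IgLON protein neurotrimin, had 16 of 59 with 5. Genes with long bodies or wide flanks hold many regions, and in these 6 from 25% to 33.3% of shared regions were members.

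The top member of Robo1, chr16:72740056-72740575, had 13 and 11 tags in controls and 39 and 40 tags without Hoxa5. The top member of Rbfox1, chr16:6794737-6795738, had 14 tags in each control and 82 and 168 tags without Hoxa5. The top member of Ptprd, chr4:76323992-76324817, had 18, 16, 51 and 64 tags. In none of these did the genotypes overlap, which the selection largely sets. In tags relative to background the same held at 99.7% of members and 42.3% of all shared regions. The lower Hoxa5-deficient count was over 2 times the higher control count in each of the 3.

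Regions were also grouped by 21 gene lists of roles in neurons and of other cell types. The lists share some genes and are not independent. Slit3 is in the motor neuron identity and axon guidance lists, Cdh13 in the phrenic and cadherin lists, and Runx1 in the blood and sensory lists. These shares rest on the contrast that chose the members, so they are set beside the share over all shared regions, 14.4% for members and 7.27% for the mirror set, without a test. A share of members above 20% was found in 10 of the 21 lists, of which the 5 highest come first. Other adhesion genes had 204 members among 805 shared regions (25.3%), axon guidance genes 210 of 838 (25.1%), neuronal ion channels 107 of 432 (24.8%), synaptic genes 151 of 623 (24.2%) and cadherins 124 of 514 (24.1%). Their shares in the mirror set were 8.20%, 9.07%, 6.02%, 5.14% and 9.73%. With percentiles among shared regions only, members were 23.2%, 22.8%, 23.4%, 21.3% and 21.6% and the mirror set 11.7%, 13.7%, 11.6%, 8.99% and 13.8%. Over all shared regions that ranking gave 13.3% and 12.5%. In these lists from 3.48% to 8.33% of shared regions lay at gene ends, against 19.8% overall. Counting only regions over 10 kb from a gene end, the shares of members were 26.5%, 28%, 28.9%, 27.6% and 26.1%, against 20.3% for all genes. The distance of each of these 5 lists from all genes was smaller among such regions than among all shared regions.

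**Figure D5:**
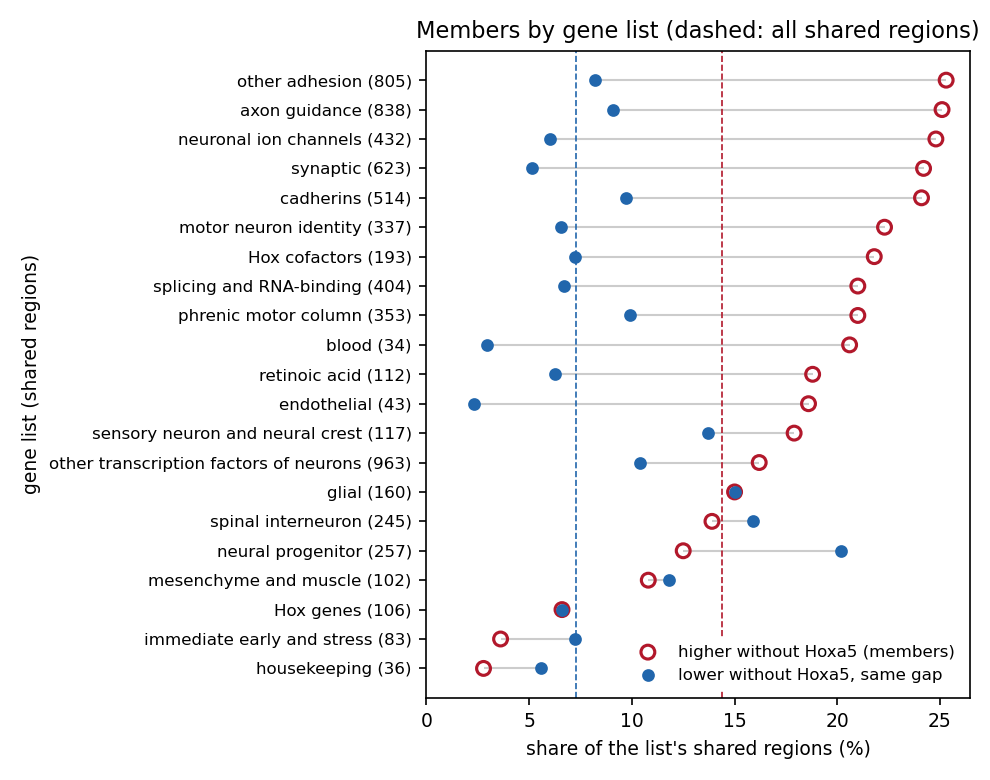
Percentage of each list's shared regions (horizontal axis) that were members (open red circles) or in the mirror set (filled blue circles), with percentiles within each library's list, the number of shared regions in brackets and dashed lines at the values over all shared regions, 14.4% and 7.27%. Lists of neuronal adhesion, guidance, channel and synaptic genes have the highest shares of members, and neural progenitor genes have more regions in the mirror set than members.

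Among guidance genes, Efna5, which encodes a repellent ephrin, had 13 members among 34 shared regions and none in the mirror set. Slit3, a ligand of Robo receptors, had 15 of 53. In the ion channel list Kcnma1, which encodes the large-conductance calcium-activated potassium channel, had 15 of 30, with 1 in the mirror set. Its strongest-gap member, chr14:23301208-23302011, had 14 and 11 tags in controls and 28 and 49 tags without Hoxa5. Cacna2d3 had 11 of 41 and Kcnip1 10 of 32. Among synaptic genes Nrxn3, a neurexin, had 14 of 65, and the kainate receptor gene Grik4 and the scaffold gene Magi2 each had 11 of 33. Fat3 and Pcdh20 led the cadherins with Cdh13, at 12 of 39, 9 of 18 and 10 of 50 regions, and Tenm2, another teneurin, had 15 of 49.

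Lists closer to motor neurons and to Hox function follow. Motor neuron identity genes had 75 members among 337 shared regions (22.3%, mirror set 6.53%), Hox cofactors 42 of 193 (21.8%, mirror set 7.25%) and phrenic motor column genes 74 of 353 (21.0%, mirror set 9.92%). Over 10 kb from gene ends the shares of members were 27.3%, 25.5% and 23.3%, against 20.3% for all genes. The mirror set took 4.92%, 6.37% and 9.51% there, against 8.78% for all genes. With percentiles among shared regions only, members were 21.1%, 20.7% and 19.5%, against 13.3% of all shared regions. The mirror set then took 13.1%, 13.5% and 13.9%, against 12.5%. In the cofactor list Meis1 had 12 members among 38 regions and Pbx3 8 of 27. Meis and Pbx proteins bind DNA beside Hox proteins. The member of Pbx3 with the largest gap, chr2:34270300-34271283, had 19 and 15 tags in controls and 61 and 105 tags without Hoxa5. In the phrenic list Negr1 had 9 of 25, Cdh13 10 of 50 and Cdh8 7 of 22. Cdh8 and Cdh13 are cadherins, which hold cells together by binding the same molecule on a neighbour. Ebf1 had 15 of 45 and the guidance ligand gene Slit3 15 of 53 in the motor neuron list.

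Retinoic acid genes had 21 members among 112 regions (18.8%, mirror set 6.25%), of which Rarb, a receptor gene, held 10 of its 32. With percentiles among shared regions only, this list had 12 members (10.7%) and 16 mirror regions (14.3%), so its balance turned over. Splicing and RNA-binding genes had 85 of 404 (21.0%, mirror set 6.68%), with Celf4 at 15 of 59 and Rbfox3 at 12 of 51, and 75 members and 44 mirror regions under the other ranking. Other transcription factors of neurons had 156 of 963 (16.2%, mirror set 10.4%), led by Zfhx3, Zfp608 and Sox5 with 15, 14 and 14 members, and the other ranking gave 152 members (15.8%) and 159 mirror regions (16.5%). Immediate early and stress genes had 3 of 83 (3.61%, mirror set 7.23%), 1 each at Gadd45g, Gadd45a and Jun, and housekeeping genes 1 of 36 (2.78%, mirror set 5.56%), at Ywhaz. The other ranking gave 2 members and 8 mirror regions, and 1 and 4. These last 2 lists had 28.9% and 30.6% of their regions at gene ends.

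The lists of other cell types differed in balance, and the balance of several depended on the ranking. Neural progenitor genes had 32 members among 257 regions (12.5%) and 52 in the mirror set (20.2%), with Sox2 at 8 and 9 of its 35 regions. Glial genes had 24 and 24 of 160 (15% each), and spinal interneuron genes 34 and 39 of 245 (13.9% and 15.9%). Mesenchyme and muscle genes had 11 and 12 of 102 (10.8% and 11.8%), and sensory neuron and neural crest genes 21 and 16 of 117 (17.9% and 13.7%). Endothelial genes had 8 and 1 of 43 (18.6% and 2.33%), and blood genes 7 and 1 of 34 (20.6% and 2.94%). With percentiles among shared regions only, members and mirror regions numbered 28 and 75 for progenitor, 19 and 36 for glial, 31 and 63 for interneuron, 14 and 19 for mesenchyme, 17 and 19 for sensory and crest, 6 and 4 for endothelial and 6 and 4 for blood genes. Progenitor, interneuron and mesenchyme genes thus had more regions in the mirror set than among members under both rankings.

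The summed background multiples of a list's shared regions, as a percentage of the sum over all shared regions, gave levels for whole lists. Neural progenitor genes took 0.312% and 0.290% in controls and 0.228% and 0.223% without Hoxa5, and glial genes 0.156%, 0.144%, 0.118% and 0.115%. Each control was above each mutant in both of these lists. The same held for the interneuron, mesenchyme, sensory and crest, and blood lists that follow, while endothelial values overlapped. Interneuron genes took 0.264%, 0.261%, 0.225% and 0.230%, and mesenchyme genes 0.0845%, 0.0775%, 0.0641% and 0.0614%. Sensory and crest genes took 0.109%, 0.105%, 0.100% and 0.0997%, endothelial genes 0.0326%, 0.0312%, 0.0322% and 0.0317%, and blood genes 0.0356%, 0.0316%, 0.0303% and 0.0307%. The globin genes Hba-a1 and Hbb-bt, and Gata1, Tie1 and Foxs1, had no shared region. The part of cell composition in the members was not tested.

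Markers of motor neurons were read at shared regions, which have a peak in all 4 libraries by definition. Having such a region is therefore no check of the sort. Lists of other cell types had them too, at 28 of 28 neural progenitor genes and 6 of 9 blood genes. Of 10 motor neuron markers, 9 had shared regions, 95 in all, and Slc18a3, which lies inside Chat, had none assigned. Their share of all shared signal was 0.0786% and 0.0749% in controls and 0.0787% and 0.0785% without Hoxa5, values that overlapped. Of the 95 regions, 16 (16.8%) were members and 5 were in the mirror set. Accessibility near a gene is not its expression.

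The strongest member among these markers lay in Chat, which encodes choline acetyltransferase. This region, chr14:32439529-32440389, had 54 and 61 tags in controls and 204 and 404 tags without Hoxa5, a log2 ratio of 2.13. A second Chat member, chr14:32428907-32429687, had 30, 23, 33 and 68 tags, and the other 8 shared regions of Chat were in neither set. Foxp1, a transcription factor gene of limb-innervating motor columns, had 9 members among 44 regions, all inside its body. The LIM homeodomain gene Isl1 had 2 of 11, the nearer 54.8 kb away and with 20, 16, 42 and 61 tags, and the farther 211 kb away and with 27, 22, 120 and 101 tags. Lhx4, Mnx1 and Slc5a7 had 1 member each, and Isl2, Lhx3 and Prph had none among 3, 5 and 3 regions.

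Hox genes held few members. Of 106 shared regions assigned to 36 Hox genes, 7 (6.6%) were members and 7 were in the mirror set, and with percentiles among shared regions only the counts were 7 and 23. In this list 34.0% of regions lay at gene ends, and over 10 kb from gene ends 4 of 17 regions (23.5%) were members, against 20.3% for all genes. Hoxa5 itself had 2 shared regions, and neither was a member. The one over its upstream end, chr6:52203661-52204891, had 301 and 192 tags in controls and 219 and 373 tags in Hoxa5-deficient libraries, so the genotypes overlapped. These regions are no check of the genotype labels, since the deleted part of the gene is not stated. The single shared regions of Hoxb5 (255, 202, 183 and 300 tags) and Hoxc5 (183, 145, 196 and 238 tags), the paralogs of Hoxa5, were not members.

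Among the Hox members, 3 were assigned to Hoxc4 and 1 each to Hoxb3 and Hoxc8. At Hoxc4, the region chr15:103026027-103026804 inside the gene had 37 and 36 tags in controls and 75 and 91 tags without Hoxa5. The farther ones, 39.4 and 57.1 kb away, had 13, 14, 33 and 47 tags and 26, 18, 58 and 67 tags. The Hoxc8 region (38, 32, 45 and 54 tags) was only just over the threshold, with a gap of 10.8 points. The Hoxb3 region, chr11:96333447-96333971 inside the gene, had 44 and 38 tags in controls and 66 and 67 tags without Hoxa5.

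The Evx genes are homeobox genes at the ends of Hox clusters that mark a class of commissural interneurons. Of their 13 shared regions, 4 (30.8%) were members, against 14.4% of all shared regions, and 1 was in the mirror set. A first member lay over an end of Evx1, at chr6:52313315-52314336. It had 40 and 19 tags in controls and 122 and 210 tags without Hoxa5, a log2 ratio of 2.34. A second Evx1 member 4.73 kb away had 77, 35, 176 and 275 tags, and the Evx2 member had 38, 38, 112 and 126 tags. These 3 were higher in both Hoxa5-deficient libraries than in either control, in tags as in the percentiles that chose them. The Evx genes were named after their values were seen. Both stand in the spinal interneuron list, where mirror regions outnumbered members, 39 against 34. With percentiles among shared regions only, that list had 63 against 31.

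Members at promoters were few and poor in CpG. Over a RefSeq promoter window lay 223 members, touching 256 windows, of which 131 belonged to protein-coding genes. The 250 bases before the start held a median of 6 CpG in these windows, against 16 in the 15361 windows of all shared regions, 6 in the mirror set's 232 windows and 6 in all 32851 windows of the table. At least 10 CpG were found in 25.8% of members' windows and 75.5% of windows of shared regions. The median GC content was 52.2% and 61.2%. In composition the members' promoters were thus like the table at large and the mirror set, and unlike the promoters open in every library.

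The same windows were searched for 19 short motifs on both strands. The homeodomain core TAATTA was in 7.42% of members' windows, 4.31% of the mirror set's, 2.37% of windows of all shared regions and 4.84% of all windows. For the composite TGATTNAT the shares were 5.08%, 3.02%, 1.14% and 2.82%, and for the Meis core TGACAG 21.1%, 14.2%, 13.4% and 15.9%. The composite can overlap the core, as it does at Dcx. The Onecut core ATTGAT, of factors found in young motor neurons, was in 10.2%, 2.59%, 3.44% and 6.72%. Its count was 26 windows of members and 6 of the mirror set. The E-box CAGCTG, read by proneural and other bHLH factors, was in 14.1% of members' windows and 24.6% of the mirror set's, and the Sox core ACAATG in 12.5% and 19.0%, with 12.3% and 5.88% of windows of all shared regions. The GC-rich Sp or Klf core GGGCGG was in 25.8%, 33.6%, 59.8% and 32.7%, and the Ets core CCGGAA in 8.59%, 9.91%, 20.9% and 12%. Motifs of other families were also more frequent in members' windows than in those of all shared regions: the Gata core AGATAA was in 12.1% against 5.01% (mirror set 6.90%), the nuclear receptor core AGGTCA in 17.2% against 9.67% (mirror set 10.8%) and the AP-1 site TGANTCA in 7.81% against 3.70% (mirror set 6.03%). The higher shares were thus not limited to the Hox, Meis and Onecut motifs, and the GC content of the windows was lower as well. These windows touch 223 of the 9449 members, and the sequence of the rest was not analysed here.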

How the data were processed

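In each library the authors called peaks on their own, and the deposited list gives intervals and summits as base positions, a score capped at 1000, and for each summit a fold enrichment ratio, −log10 of the p-value and −log10 of the q-value. Per the submitters' processing notes, the build was mm10 and the tools were MACS2 2.2.4, SAMtools 1.9, Bowtie2 2.3.4.3 and FastQC 0.11.9, without parameters. A Tn5 shift of reads is not stated there. The deposited score was not used.

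Libraries were grouped by the genotype in their labels. Percentiles of −log10 p, merging and gaps followed the rule in the text. Tags at a summit were solved from the deposited fold and −log10 p under a Poisson background with a tolerance of 0.001, and ratios use geometric means over the libraries of a genotype. A region was assigned by its strongest summit to a RefSeq protein-coding gene (21883 used, GRCm38.p6): the shortest body that holds it, or else the nearest. The table gives no strand, so both gene ends count. Named are the 12 members with the largest gap, 3 regions on each side of the threshold, the 6 genes with most members and up to 3 genes per list, and others were picked after their values were seen. Some genes that this rule names are not reported here. The members, gene lists and motifs were chosen with earlier results of these data known. In the lists 1 gene, Drgx, was not matched. No test was made, because the members were selected on this contrast. The computation was tested on simulated lists. Alternatives varied the ranking column, the ranked list, the gap, the peak threshold, the overlap, the feature and the libraries. Python 3.11.15, pandas 2.3.3, numpy 2.4.6, scipy 1.17.1 and matplotlib 3.10.9 were used.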

Additional observations from a re-analysis of the deposited data

How the results depend on the processing

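No test was made, and the labels do not say which control and Hoxa5-deficient libraries share a litter, so no pairing was used. With all 4 libraries, members were 8.09 to 33.2 times the mean crossed count under every alternative run. With percentiles among shared regions only, the mirror set held 8239 regions and the ratio of members to it was 1.06; with recovered tags these were 8032 and 1.08, and with lists cut to equal length the ratio was 0.969. A gap of 5 gave a mirror set of 7751 and a ratio of members to the crossed mean of 8.09, and a gap of 20 gave 4545 members, a mirror set of 1923 and a ratio to the crossed mean of 33.2. Peaks with −log10 q of at least 5 gave 6721 members and a mirror set of 2687. Of these members, 3610 (53.7%) overlapped a member of the set described here. Leaving out a library gave 11221 to 17129 members, with 17129 without control 1 and 16483 without control 2, and a mirror set of 7300 to 9949, since a pair is harder to separate than a single library; the crossed counts need all 4 libraries. Of members, the share within 1 kb of a gene end was 2.15% with equal lists, 4.78% and 1.65% with gaps of 5 and 20, 6.29% with the stricter peaks, 9.84% with windows around summits and 2.98% to 3.70% without a library, always below the 18.1% to 28.4% of shared regions in the same settings. The share inside gene bodies was 48.4%, 51.3%, 48.4%, 51.5%, 52.9% and 49.8% to 51.0% in the same order, and the share over 100 kb from a gene 24.2%, 21.4%, 24.9%, 20.5%, 20.4% and 21.3% to 22.8%. Rankings by fold enrichment and by −log10 q, and an overlap of 50%, stayed within 1.5 times for all counts. Of 18 named regions, 14 stayed on their side of the threshold with fold enrichment, 14 with percentiles among shared regions, 14 with recovered tags and 18 with −log10 q. Of the 18, 12 were the members with the largest gaps, at least 70.1 points, and could hardly cross it. Every change of side was among the regions picked next to the threshold, most of which changed under each ranking except −log10 q. Motif windows of other sizes were not run, because no genome of the build was used here. Tag counts under about 20 carry wide counting intervals, so gaps at weak regions are the least precise.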
